A study of Homo sapiens with 6 samples.

Results

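The SR genes studied here are SRSF1, SRSF2, SRSF3, SRSF4, SRSF5, SRSF6, SRSF7, SRSF10, SRSF11 and TRA2B. They are 10 of the 19571 gene rows measured, chosen by symbol, together with all 20 of 52140 splicing events that carry one of these symbols. RNA was sequenced from LNCaP, a line of human prostate cancer cells that responds to androgen. One group, genotype Flag-KDM4B, stably overexpressed a Flag-tagged wild-type KDM4B, a histone lysine demethylase (3 libraries, replicates 1, 2 and 4). The other stably carried the plenti6 control plasmid, an empty vector (3 libraries, replicates 1, 2 and 3). Both groups were grown in RPMI medium with 10% FBS and then kept in RPMI with 10% CFBS for the last 3 days. The labels state neither the number of clones nor whether replicates were separate cultures, so each p-value reflects the spread among these 6 samples and no more, and that spread may be technical.

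SR proteins carry RNA recognition motifs and a domain rich in arginine-serine dipeptides. They bind enhancer sequences in exons and help the splicing machinery define those exons, and kinases such as the SRPK and CLK enzymes phosphorylate the arginine-serine domain. Many SR genes limit their own output: their protein promotes inclusion of a poison exon or removal of an intron in its own transcript, and the product is destroyed by nonsense-mediated decay.

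KDM4B itself measured 26.33, 27.17 and 25.76 FPKM (fragments scaled to transcript length and library total) in the KDM4B-labelled libraries and 24.73, 25.15 and 25.28 FPKM in the vector libraries. The groups did not overlap, and the log2 fold change was 0.07 as deposited (SE 0.039, limma, adjusted p = 0.113) and 0.31 after the scaling described below (SE 0.034, adjusted p = 1.93e-05), a scaled level 24.9% higher. Since the call depends on the scale, the libraries are named by their label only. All 8 luminal prostate markers had rows, and their summed level was 1668 to 1735 FPKM in the KDM4B-labelled libraries against 4097 to 4270 FPKM in the vector libraries. KLK3, the gene of prostate-specific antigen, made up much of that gap, at 394 to 471 against 2162 to 2260 FPKM. Of 9 markers of leukocytes, endothelium, fibroblasts and basal cells, 6 had a row, with a summed level of 3.19 to 3.48 FPKM in all 6 libraries. Ribosomal RNA rows took 8.14% to 10.5% of all FPKM in the KDM4B-labelled libraries and 0.144% to 0.473% in the vector libraries. Values are therefore given as deposited and also after median-of-ratios scaling, which sets the typical gene equal between libraries and moved the median of all genes from a log2 difference of -0.22 to -0.00048. A suffix occurs in the titles of the 3 KDM4B-labelled libraries alone, so a batch and the group cannot be told apart.

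Before the values, the promoters of 4 SR genes are shown, because these genes took different directions once libraries were scaled: SRSF3 and SRSF11 were lower, SRSF1 and TRA2B higher. Each line gives the 250 bases before the start of the gene, 5′ to 3′ on the strand of the gene, from a RefSeq promoter table (GRCh38.p14) in which 9 of the 10 SR genes were matched, all but SRSF2. Capitals mark the letters TATAAA, known as the TATA box, the letters GGGCGG, known as the GC box, and the CCAAT box, which its name spells. Both strands were searched, and no marked motif overlaps another.
SRSF3, chr6:36594112-36594361, plus strand: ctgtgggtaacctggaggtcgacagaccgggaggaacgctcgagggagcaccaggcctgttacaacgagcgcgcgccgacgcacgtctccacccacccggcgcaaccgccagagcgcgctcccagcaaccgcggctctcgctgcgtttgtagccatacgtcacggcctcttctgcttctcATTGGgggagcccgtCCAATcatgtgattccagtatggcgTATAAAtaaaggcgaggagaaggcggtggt
SRSF11, chr1:70205446-70205695, plus strand: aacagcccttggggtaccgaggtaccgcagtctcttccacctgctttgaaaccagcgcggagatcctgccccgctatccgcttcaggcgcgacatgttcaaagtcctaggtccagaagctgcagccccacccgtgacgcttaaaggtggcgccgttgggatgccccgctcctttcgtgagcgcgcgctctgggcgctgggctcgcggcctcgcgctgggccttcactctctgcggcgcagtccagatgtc
SRSF1, chr17:58007247-58007496, minus strand: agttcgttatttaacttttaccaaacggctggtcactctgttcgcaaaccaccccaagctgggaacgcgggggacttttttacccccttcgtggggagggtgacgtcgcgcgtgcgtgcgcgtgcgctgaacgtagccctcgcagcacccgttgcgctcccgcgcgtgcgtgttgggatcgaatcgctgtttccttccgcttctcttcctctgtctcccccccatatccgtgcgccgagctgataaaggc
TRA2B, chr3:185938015-185938264, minus strand: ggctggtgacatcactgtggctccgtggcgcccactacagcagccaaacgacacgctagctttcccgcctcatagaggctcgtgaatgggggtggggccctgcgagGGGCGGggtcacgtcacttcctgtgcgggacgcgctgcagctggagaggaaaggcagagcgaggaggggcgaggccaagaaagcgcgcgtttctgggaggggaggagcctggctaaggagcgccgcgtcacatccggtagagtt
Among the 9 promoters SRSF3 was the one with a TATA box, whose last base lies 24 bases before the start, and the one with CCAAT boxes, 65 and 50 bases before it. The first of these is read on the opposite strand, as ATTGG. TRA2B, SRSF4, SRSF6 and SRSF7 held a GC box. SRSF11, SRSF1, SRSF5 and SRSF10 held none of the 3 motifs. Over 35116 promoters of the same length, 10.7% held TATAAA, 32.0% CCAAT and 42.6% GGGCGG. The promoters of the SR genes were 54.8% to 73.6% G and C, against a median of 58.0% over all promoters. For SRSF11 and SRSF7, which have 2 listed starts each, the start nearest the annotated 5′ end was used.

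SR gene expression differed between the groups in both directions, as did that of genes in general. As deposited, SRSF2 rose, 8 SR genes fell, and TRA2B did not pass the test (limma on log2(FPKM + 1), adjusted p below 0.05). Of all 12148 genes tested, 13.4% rose and 60.3% fell, so a fall of most SR genes is close to that background. After scaling, 5 rose (SRSF2, TRA2B, SRSF1, SRSF5 and SRSF10), 2 fell (SRSF11 and SRSF3) and 3 did not pass (SRSF4, SRSF6 and SRSF7), where 34.1% of all genes rose and 33.9% fell. Calls in both directions were thus common over all genes too. The groups did not overlap in 1 higher and 7 lower SR genes as deposited (14.6% and 61.7% of all genes) and in 5 higher and 2 lower after scaling (35.8% and 35.9%). The median log2 fold change of the 10 genes was -0.17 as deposited and 0.07 scaled. In this bulk RNA, fewer cells of a type and less RNA per cell cannot be told apart. The summed FPKM of the 10 genes was 519, 560 and 529 in the KDM4B-labelled libraries and 621, 594 and 602 in the vector libraries. As a share of all FPKM outside ribosomal RNA, the order turned: 0.131%, 0.135% and 0.131% against 0.130%, 0.125% and 0.127%.

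**Figure D1:**
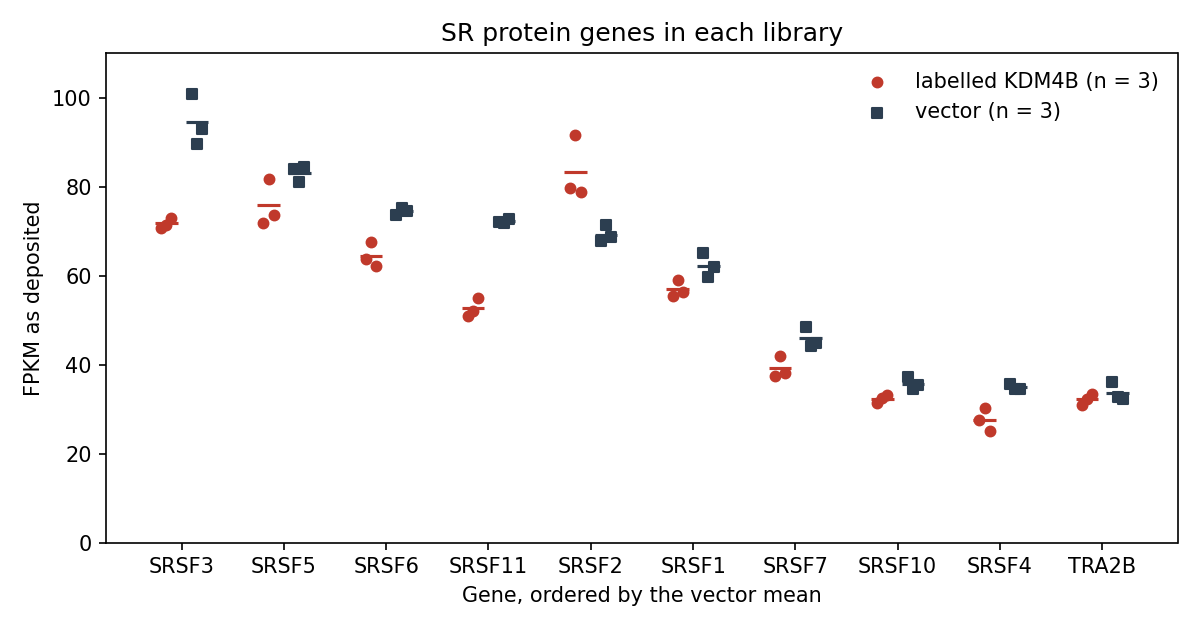
FPKM as deposited (vertical axis) of the 10 SR genes (horizontal axis, ordered by the vector mean) in each library, with 3 points per group and a bar at the mean. The SRSF2 points labelled KDM4B lie above the vector points, and those of SRSF11 and SRSF3 lie well below them.

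In the vector libraries the SR genes ran from SRSF3 (94.4 ± 5.77 FPKM, SD, n = 3) down to TRA2B (33.6 ± 2.06 FPKM, SD, n = 3). The order between was SRSF5, SRSF6, SRSF11, SRSF2, SRSF1, SRSF7, SRSF10 and SRSF4. Neighbours in that order did not overlap in their 3 libraries, except SRSF10 with SRSF4 and SRSF4 with TRA2B. In the KDM4B-labelled libraries, SRSF2 stood first, with SRSF5 and SRSF3 after it, and each overlapped the next. SRSF6, SRSF1, SRSF11 and SRSF7 followed without overlap, SRSF10 overlapped TRA2B, and SRSF4 was last. FPKM are scaled to length, which alone does not make levels of different genes fully comparable. Reads of overlapping genes or pseudogenes, described below, could also shift a level, so the order holds for these FPKM only.

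Among the SR proteins with a single RNA recognition motif, SRSF2 (gene 6427), the protein also known as SC35 and used to mark nuclear speckles, had the largest scaled change of the 10. It measured 79.75, 91.47 and 78.68 FPKM in the KDM4B-labelled libraries and 67.66, 71.33 and 68.58 FPKM in the vector libraries. Every KDM4B-labelled library lay above every vector library, with replicate 2 the highest. The log2 fold change was 0.26 as deposited (SE 0.054, limma, adjusted p = 0.000999) and 0.50 after scaling (SE 0.045, adjusted p = 4.40e-06), a scaled level 42.5% higher. SRSF2 overlaps MFSD11 and a microRNA gene, MIR636, and the sources used here do not state whether counting used the strand, so reads of overlapping genes may not be separated. The same limit holds for SRSF4, which overlaps MECR, SRSF1, which overlaps LOC101929185, and SRSF5, which overlaps LOC100289511.

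SRSF3 (gene 6428), the smallest classical SR protein, which also acts in mRNA export, measured 70.78, 71.45 and 73.04 FPKM in the KDM4B-labelled libraries. The vector libraries measured 100.81, 89.58 and 92.89 FPKM. The groups lay far apart, and the vector libraries spread more widely. SRSF3 fell by 0.39 (log2, SE 0.045, limma, adjusted p = 1.04e-05) as deposited and by 0.15 (SE 0.045, adjusted p = 0.0130) after scaling. SRSF3 has 5 pseudogenes, between which and the gene the authors' counting could split reads.

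SRSF7 (gene 6432), which adds a zinc knuckle to its RNA recognition motif, measured 37.50, 41.85 and 38.11 FPKM in the KDM4B-labelled libraries and 48.47, 44.24 and 44.87 FPKM in the vector libraries. The groups did not overlap as deposited. SRSF7 fell by 0.22 (log2, SE 0.051, limma, adjusted p = 0.00197), but its scaled difference was 0.015 (SE 0.044, adjusted p = 0.773).

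Among the SR proteins with tandem RNA recognition motifs, SRSF1 (gene 6426), the founding member of the family and a proto-oncogene in several tumour types, measured 55.41, 59.07 and 56.32 FPKM in the KDM4B-labelled libraries. The vector libraries measured 65.14, 59.64 and 61.82 FPKM. KDM4B replicate 2 and vector replicate 2 came within 1 FPKM of each other. SRSF1 fell by 0.13 (log2, SE 0.043, limma, adjusted p = 0.0208) as deposited and rose by 0.12 (SE 0.038, adjusted p = 0.0200) after scaling, so its direction depends on the scale.

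SRSF4 (gene 6429), the longest of the classical SR proteins, was at 27.44, 30.19 and 25.08 FPKM in the KDM4B-labelled libraries and at 35.72, 34.45 and 34.45 FPKM in the vector libraries. All 3 KDM4B-labelled libraries were below the vector libraries. SRSF4 fell by 0.33 (log2, SE 0.058, limma, adjusted p = 0.000296) as deposited. Its scaled difference of -0.10 (SE 0.052, adjusted p = 0.130) missed the threshold.

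SRSF5 (gene 6430), an SR protein first found as an insulin-induced gene, measured 71.87, 81.63 and 73.71 FPKM in the KDM4B-labelled libraries. The vector libraries measured 83.92, 81.08 and 84.43 FPKM. The groups overlapped, through KDM4B replicate 2. SRSF5 fell by 0.13 (log2, SE 0.048, limma, adjusted p = 0.0235) as deposited and rose by 0.11 (SE 0.039, adjusted p = 0.0312) after scaling.

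SRSF6 (gene 6431), a splicing activator related to SRSF4, measured 63.69, 67.48 and 62.21 FPKM in the KDM4B-labelled libraries and 73.71, 75.10 and 74.49 FPKM in the vector libraries. The groups were separate, and the vector libraries were close together. SRSF6 fell by 0.21 (log2, SE 0.039, limma, adjusted p = 0.000546), with a scaled difference of 0.035 (SE 0.032, adjusted p = 0.340).

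Among the SR-like members, SRSF11 (gene 9295), an atypical SR protein also called p54, had the largest fall of the 10. It measured 50.84, 52.09 and 54.96 FPKM in the KDM4B-labelled libraries and 72.13, 71.70 and 72.73 FPKM in the vector libraries. The spread within each group was several times smaller than the gap between them. SRSF11 fell by 0.45 (log2, SE 0.039, limma, adjusted p = 1.00e-06) as deposited and by 0.21 (SE 0.037, adjusted p = 0.000532) after scaling.

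SRSF10 (gene 10772), a repressor of splicing when dephosphorylated, as in heat shock, measured 31.32, 32.51 and 33.13 FPKM in the KDM4B-labelled libraries. The vector libraries measured 37.10, 34.57 and 35.40 FPKM. The groups were separate by a small margin. SRSF10 fell by 0.14 (log2, SE 0.042, limma, adjusted p = 0.0107) as deposited and rose by 0.10 (SE 0.039, adjusted p = 0.0447) after scaling.

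TRA2B (gene 6434), which binds GAA-rich exonic enhancers, measured 30.85, 32.34 and 33.36 FPKM in the KDM4B-labelled libraries and 36.00, 32.70 and 32.22 FPKM in the vector libraries. The groups overlapped as deposited, with a log2 fold change of -0.06 (SE 0.050, limma, adjusted p = 0.287). After scaling TRA2B rose by 0.18 (SE 0.048, adjusted p = 0.00806).

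**Figure D2:**
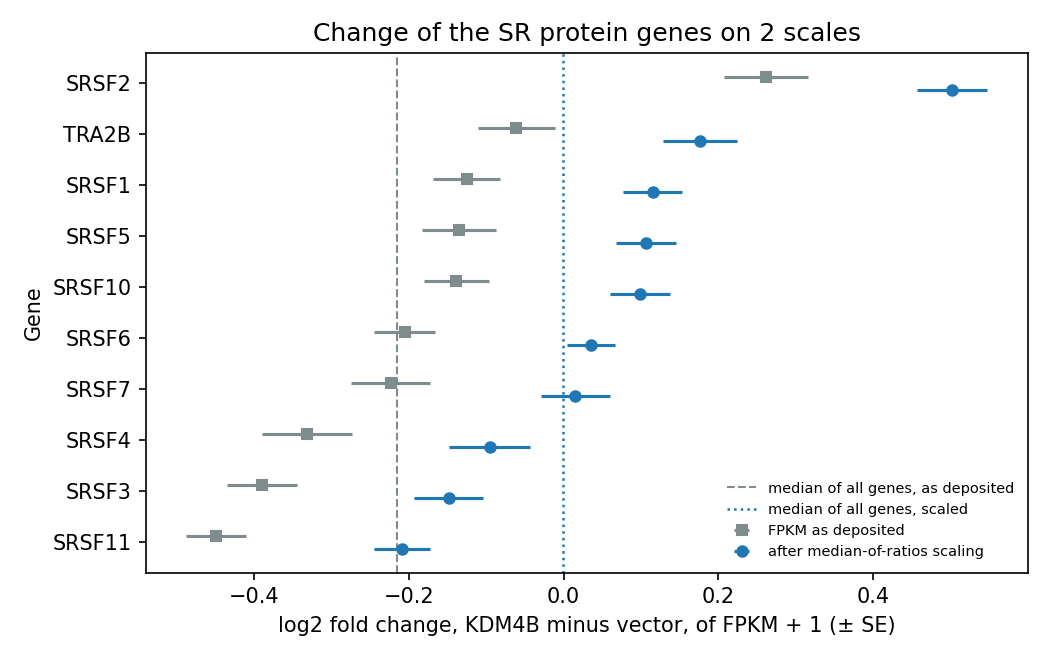
Log2 fold change of FPKM + 1 (horizontal axis, KDM4B-labelled libraries minus vector, point ± SE) for each SR gene, as deposited (grey squares) and after median-of-ratios scaling (blue circles), with the median of all genes on each scale as a vertical line. SRSF2 lies right of both lines and SRSF11 and SRSF3 left of both, while SRSF1, SRSF5, SRSF6, SRSF7, SRSF10 and TRA2B change sign between the scales.

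How firmly these calls hold differed by gene. SRSF2, SRSF11 and SRSF3 kept their calls and directions on both scales with any 1 of the 6 libraries left out. As deposited, the count of SR genes that fell dropped to 5 without KDM4B replicate 1, with SRSF1, SRSF5 and SRSF10 no longer called. After scaling, the count that rose was 2 without KDM4B replicate 2, 2 without vector replicate 2 and 3 without vector replicate 3. The scaled call of TRA2B stayed in all 6 such fits, with an adjusted p of at most 0.0384. The scaled calls of SRSF1, SRSF5 and SRSF10 were lost in 3, 2 and 5 of them. Rescaling to all FPKM outside ribosomal RNA gave 4 SR genes that rose and 2 that fell, against 32.9% and 35% of all genes.

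Ratios between SR genes within a library do not depend on any scaling of libraries. These pairs were chosen with the fold changes known and are given without a test. SRSF2 per SRSF11 was 1.57, 1.76 and 1.43 in the KDM4B-labelled libraries and 0.94, 0.99 and 0.94 in the vector libraries. SRSF2 was thus the lower of the pair in every vector library and the higher in every KDM4B-labelled library. SRSF2 per SRSF3 was 1.13, 1.28 and 1.08 against 0.67, 0.80 and 0.74. SRSF1 per SRSF3 was 0.78, 0.83 and 0.77 against 0.65, 0.67 and 0.67. TRA2B per SRSF4 was 1.12, 1.07 and 1.33 against 1.01, 0.95 and 0.94, groups that lay close but did not overlap. SRSF5 per SRSF6 overlapped, at 1.13, 1.21 and 1.18 against 1.14, 1.08 and 1.13.

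The genes whose profile over the 6 libraries was most like that of SRSF2 were REEP6, HPS6 and TAX1BP3, by the mean absolute difference of centred log2 FPKM among 6531 genes with a mean of at least 10 FPKM. Those differences were 0.0167, 0.0210 and 0.0223. REEP6, for example, was at 58.25, 63.84 and 56.92 FPKM in the KDM4B-labelled libraries and 48.35, 50.95 and 48.45 FPKM in the vector libraries. These genes were chosen for their likeness over the same 6 libraries, so the match follows from the choice.

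Genes that work with the SR proteins were described by lists, and 47 of 49 listed genes passed the expression filter; SRSF12 and SRPK3 did not. As deposited 4 rose and 24 fell, where 13.4% and 60.3% of all genes did, and after scaling 23 rose and 12 fell, where 34.1% and 33.9% did. The same shares over all genes stand behind the count of each list that follows. Their median log2 fold change was -0.16 as deposited and 0.09 scaled, against -0.22 and -0.00048 over all genes.

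Of 7 other SR and SR-like factors, 1 rose and 5 fell as deposited, and 2 rose and 3 fell after scaling. SRSF8, a close relative of SRSF2 by sequence, measured 59.80, 63.85 and 58.57 FPKM in the KDM4B-labelled libraries and 46.52, 47.52 and 48.74 FPKM in the vector libraries. It rose by 0.34 as deposited (log2, limma, adjusted p = 1.67e-05) and by 0.58 scaled (adjusted p = 1.95e-07), and reads shared with SRSF2 could be split between these similar genes. SREK1, an SR-related regulator, measured 15.49, 16.46 and 17.43 against 23.94, 23.09 and 24.16 FPKM, and fell on both scales, by 0.27 after scaling (limma, adjusted p = 0.000415). RSRC2 fell by 0.34 and 0.10 on these scales (limma, scaled adjusted p = 0.0476). SRSF9 fell by 0.24 as deposited (limma, adjusted p = 5.97e-05) and differed by 0.0046 scaled (adjusted p = 0.898).

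Of 9 kinases and import factors of SR proteins, 0 rose and 5 fell as deposited, and 4 rose and 3 fell after scaling. CLK1, a nuclear kinase that phosphorylates SR proteins, measured 20.99, 23.38 and 21.90 FPKM in the KDM4B-labelled libraries and 32.14, 29.63 and 29.99 FPKM in the vector libraries. CLK1 fell by 0.22 after scaling (log2, limma, adjusted p = 0.00123), DYRK1A by 0.22 (adjusted p = 0.00237) and the cytoplasmic kinase SRPK2 by 0.11 (adjusted p = 0.0419). CLK4 fell by 0.29 as deposited (limma, adjusted p = 0.00188) and differed by -0.08 scaled (adjusted p = 0.247).

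Of 15 SR-related coactivators and exon junction partners, 1 rose and 5 fell as deposited, and 10 rose and 2 fell after scaling. The gene that rose as deposited, named after its value was seen, was ACIN1, a component of the exon junction-associated complex, at 54.92, 57.38 and 55.35 FPKM against 49.84, 51.70 and 50.37 FPKM. ACIN1 rose by 0.14 as deposited and by 0.38 scaled (log2, limma, adjusted p = 0.00500 and 1.88e-06). The largest fall in any of these lists, on both scales, was that of THRAP3, a spliceosome- and transcription-associated protein with an arginine-serine domain. THRAP3 measured 66.27, 70.94 and 66.98 FPKM in the KDM4B-labelled libraries and 115.74, 111.01 and 113.02 FPKM in the vector libraries. It fell by 0.73 as deposited and by 0.49 scaled (log2, SE 0.031, limma, adjusted p = 3.43e-07). LUC7L2, a factor of the U1 particle, fell by 0.26 scaled (limma, adjusted p = 0.00982). RNPS1 and SCAF8 fell as deposited, by 0.29 and 0.23, and differed by -0.048 and -0.0013 scaled (limma, adjusted p = 0.206 and 0.980).

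Of 6 partners at the splice sites, 2 rose and 3 fell as deposited, and 3 rose and 1 fell after scaling. SNRNP70, the U1 protein that SR proteins contact at the 5′ splice site, measured 77.93, 81.37 and 69.52 FPKM in the KDM4B-labelled libraries and 56.41, 60.77 and 57.83 FPKM in the vector libraries. SNRNP70 rose on both scales, by 0.62 scaled (log2, SE 0.051, limma, adjusted p = 2.18e-06). The U2AF subunits that recognise the 3′ splice site went opposite ways: U2AF2 rose by 0.49 and U2AF1 fell by 0.12 scaled (limma, adjusted p = 6.26e-07 and 0.0466). U2SURP fell by 0.28 as deposited and differed by -0.05 scaled (limma, adjusted p = 0.257).

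Of 10 factors of nonsense-mediated decay, 0 rose and 6 fell as deposited, and 4 rose and 3 fell after scaling. UPF3B, which links the exon junction complex to the decay machinery, measured 5.56, 6.35 and 4.47 FPKM in the KDM4B-labelled libraries and 9.09, 8.27 and 8.16 FPKM in the vector libraries. UPF3B fell by 0.35 scaled (log2, SE 0.090, limma, adjusted p = 0.00532), SMG9 by 0.16 (adjusted p = 0.0285) and SMG5 by 0.13 (adjusted p = 0.00380). SMG1, the kinase of UPF1, fell by 0.23 as deposited and differed by -0.0014 scaled (limma, adjusted p = 0.976).

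**Figure D3:**
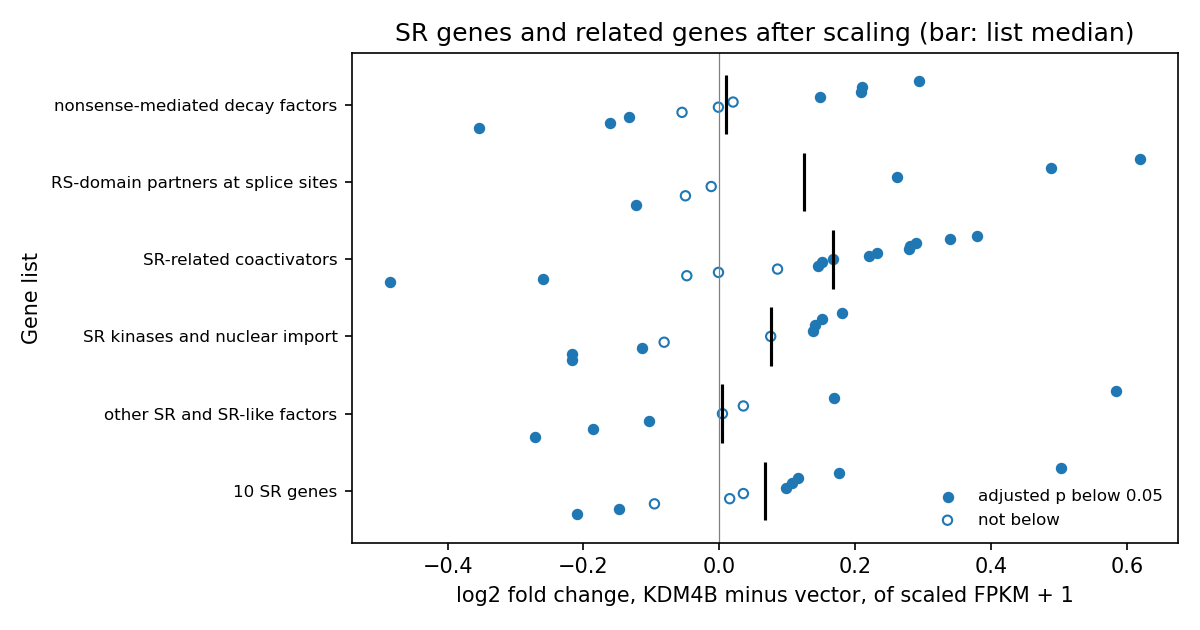
Scaled log2 fold change of FPKM + 1 (horizontal axis, KDM4B-labelled libraries minus vector) of the SR genes and of the 5 related lists (vertical axis), 1 point per gene, filled where the adjusted p was below 0.05, with a bar at the list median. Each list holds genes on both sides of 0, and the list medians lie between 0.0046 and 0.17.

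The splicing of the SR genes themselves could be followed only through the events that carry a count. These were 16 of 40622 skipped exon (SE) events, 2 of 9290 mutually exclusive exon (MXE) events, 0 of 1359 alternative 5′ splice site events and 2 of 869 retained intron (RI) events. TRA2B had 8 events, SRSF4 and SRSF11 had 3 each, SRSF1 had 2, and SRSF2, SRSF5, SRSF7 and SRSF10 had 1 each. SRSF3 and SRSF6 had none. Together the 20 events held 15067 to 17583 reads per library, counted once for every event they belong to. The SRSF10 event, on a sequence assigned to chromosome 1 but without a position in it, held 1 read in 1 library. The other 19 held at least 10 reads in each library.

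The count of an event pools its splice forms within a library, and no event of these genes allowed inclusion to be separated from skipping, as 0 of the 3247 sets that do so belong to an SR gene. Gene-level FPKM also pool the transcripts of a gene: SRSF1, SRSF2, SRSF3, SRSF6 and SRSF10 each have a non-coding transcript listed in the same row. Use of the poison exons was therefore not measured here. Event positions are given as deposited. The submitters' processing notes name GRCh38, yet 0 of the 20 events lie inside their gene on GRCh38. These positions therefore cannot be set beside the GRCh38 positions of the promoters above, and the build they follow is not certain.

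The event that moved relative to its gene was the retained intron of SRSF2. This intron has 995 bases (chr17:74731241-74732235, minus strand), between exon parts of 1044 and 311 bases. The event held 1314, 1578 and 1470 reads in the KDM4B-labelled libraries and 1521, 1508 and 1537 reads in the vector libraries. Per FPKM of SRSF2 this was 16.2, 17.0 and 18.6 reads against 22.3, 21.3 and 22.9 reads. All 3 KDM4B-labelled libraries were below all vector libraries per FPKM, though their raw counts overlapped. The event fell by 0.36 relative to the gene's FPKM (log2, edgeR quasi-likelihood test, adjusted p = 3.43e-08). Retained introns often differed in this test: 25.2% of 813 tested were called, 11.7% as lower. Relative to the library instead (TMM), with no term for the gene, the same event rose by 0.16 (edgeR, adjusted p = 0.0166), less than the gene's scaled FPKM did. In that library-wide test 9 of the 19 events were called, all as higher: 7 SE events of SRSF1 and TRA2B (background 20.7%) and both retained introns (17.1%). The count does not say which of the intron's forms changed.

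The SRSF2 intron was the 1 call among the 19 events tested against the FPKM of their gene, and 4 had an unadjusted p below 0.05. The background was 0.992% of 36299 SE events and 1.5% of 8921 MXE events. The 18 events not called differed by -0.08 to 0.29 (log2), with adjusted p of 0.274 or more.

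**Figure D4:**
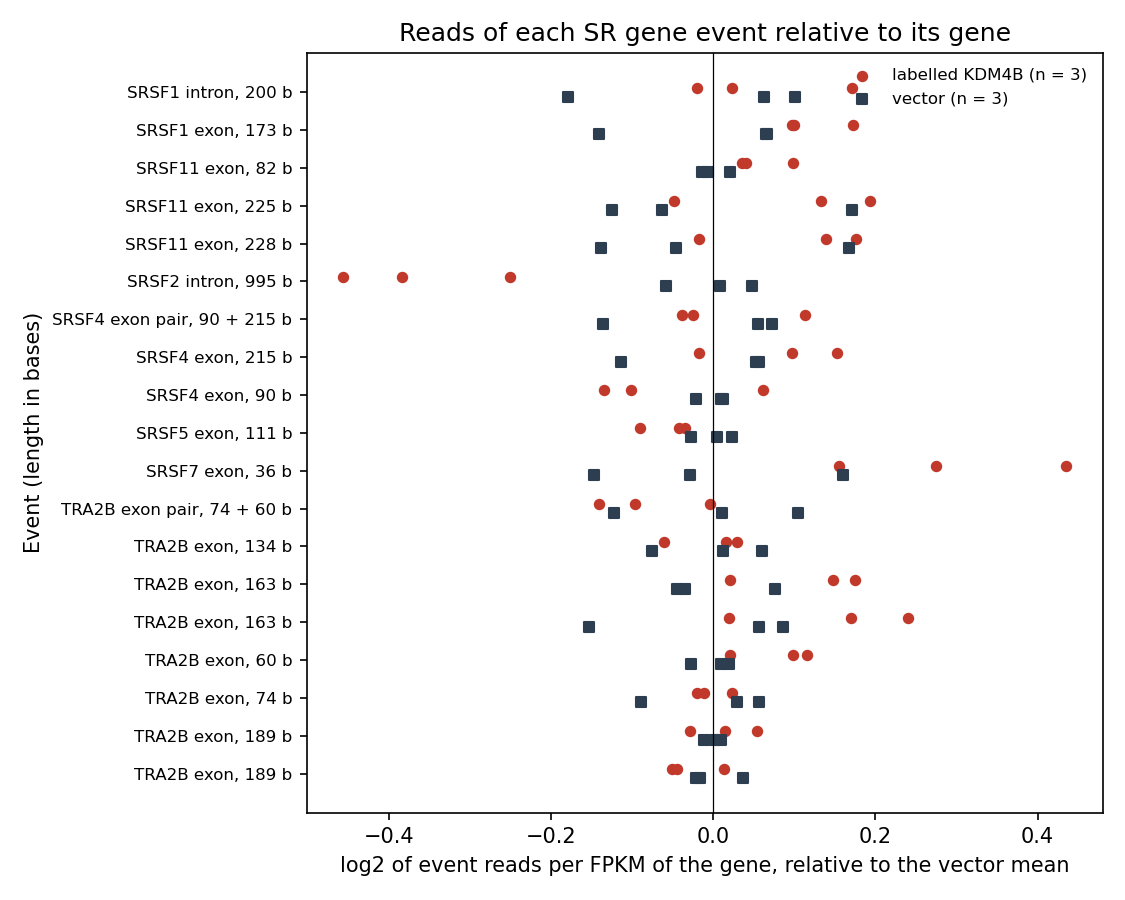
Log2 of event reads per FPKM of the gene, relative to the mean of the vector libraries (horizontal axis), for the 19 SR gene events with enough reads (vertical axis, with the length of the exon or intron), 3 points per group. The SRSF2 intron is the event whose points labelled KDM4B lie far left of the vector points.

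The SRSF1 exon of 173 bases (chr17:56083162-56083334, minus strand) had 32.8, 34.5 and 32.8 reads per FPKM in the KDM4B-labelled libraries and 32.1, 32.0 and 27.8 in the vector libraries. The groups did not overlap but came close, and the difference of 0.12 (log2) missed the threshold (edgeR, adjusted p = 0.274). The SRSF1 retained intron of 200 bases next to it (chr17:56082962-56083161) had 15.6, 17.3 and 15.2 against 16.0, 16.5 and 13.6 reads per FPKM, which overlapped (log2 difference 0.06, edgeR, adjusted p = 0.515). As a share of the SE reads of SRSF1 it was 47.6%, 50.1% and 46.2% against 50%, 51.4% and 48.8%, also overlapping (edgeR, adjusted p = 0.304).

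The SRSF7 exon of 36 bases (chr2:38973286-38973321, minus strand) was the least read of these, with 2.93, 3.27 and 2.70 reads per FPKM in the KDM4B-labelled libraries and 2.70, 2.19 and 2.37 in the vector libraries. Its log2 difference of 0.29 was the largest of the uncalled events (edgeR, adjusted p = 0.548). The SRSF5 exon of 111 bases (chr14:70237712-70237822, plus strand) had 12.9, 12.9 and 12.4 against 13.28, 12.99 and 13.46 reads per FPKM, a difference of -0.06 (edgeR, adjusted p = 0.814).

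SRSF11 has a pair of overlapping exon events that share their downstream edge and differ by 3 bases at the other, at 225 and 228 bases (chr1:70687298-70687522 and chr1:70687295-70687522, plus strand). The event of the shorter exon, whose count pools its forms, had 17.4, 16.7 and 14.7 reads per FPKM in the KDM4B-labelled libraries and 14.5, 17.1 and 13.9 in the vector libraries. The groups overlapped (log2 difference 0.10, edgeR, adjusted p = 0.717). The count of the shorter event exceeded that of the longer by 49, 35 and 18 reads against 34, 56 and 51 reads, ranges that overlap. The third SRSF11 exon, of 82 bases (chr1:70705122-70705203), had 13.7, 13.2 and 13.2 against 12.70, 12.77 and 13.02 reads per FPKM (log2 difference 0.06, edgeR, adjusted p = 0.836). SRSF11 transcripts thus fell by gene level while the reads of these exons per FPKM did not pass the test.

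Against the summed SE reads of the same gene, 0 of 15 events of SR genes were called by edgeR and 0 by DESeq2, with 1 unadjusted p below 0.05 in edgeR. The background was 0.358% of 34658 SE events, 0.514% of 8952 MXE events and 22.4% of 755 RI events. The log2 differences ran from -0.11 to 0.11. For an SE event the summed reads include the event itself, so part of any change cancels. The 2 SRSF4 SE events, for example, make up the whole sum. The 0 calls therefore do not show that splicing was unchanged. TRA2B, with 7 SE events, gave the most detail. Its most-read exon event, of 189 bases (chr3:185641584-185641772, minus strand), held 26.1%, 26.8% and 26.7% of TRA2B SE reads in the KDM4B-labelled libraries and 26.9%, 26.6% and 27.2% in the vector libraries, which overlapped (log2 difference -0.02, edgeR, adjusted p = 0.934). The lowest unadjusted p, 0.0442 in edgeR, belonged to an event of the exon of 163 bases (chr3:185643252-185643414), between exons of 189 and 312 bases. That event held 18.2%, 17.9% and 17.2% against 16.5%, 17.4% and 16.4% of those reads (adjusted p = 0.595). A second event of the same exon, between exons of 116 and 312 bases, held 8.30%, 7.89% and 7.48% against 7.64%, 7.60% and 6.63%, which overlapped (edgeR, adjusted p = 0.718). The events of TRA2B share reads and are not independent.

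For SRSF4 and TRA2B, reads that join 2 neighbouring exons were recovered, since the counts of the pair's SE events minus the MXE count give such reads multiplied by 2. Over 49032 such values in all genes, 99.98% were exactly even and 0 were negative. The SRSF4 pair has exons of 90 and 215 bases (chr1:29476615-29476704 and chr1:29481208-29481422, minus strand). Its joining reads numbered 203, 197 and 188 in the KDM4B-labelled libraries and 245, 233 and 236 in the vector libraries. These raw counts were lower in all 3 KDM4B-labelled libraries, which also held fewer joining reads over all genes, 1465104 to 1517371 against 1695693 to 1755800. They made up 29.6%, 27.3% and 28.2% of joining and MXE reads against 26.9%, 27.2% and 30.5%, which overlapped (log2 odds ratio 0.02, edgeR, adjusted p = 0.991). MXE reads include those that join each exon of the pair to its outer neighbour, so a transcript with both exons adds to them too. The share is therefore not the share of transcripts that join the 2 exons.

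The TRA2B pair has exons of 74 and 60 bases (chr3:185636153-185636226 and chr3:185637225-185637284, minus strand). Its joining reads numbered 153, 157 and 157 in the KDM4B-labelled libraries and 144, 147 and 135 in the vector libraries, higher in all 3. Their share was 30.4%, 30.7% and 28.3% against 23.6%, 27.4% and 28.1%, a separation by a small margin that missed the threshold (log2 odds ratio 0.25, edgeR, adjusted p = 0.743). Neither share was called, by edgeR or by DESeq2, and neither had an unadjusted p below 0.05 in edgeR. The background was 0.532% of 7524 pairs.

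**Figure D5:**
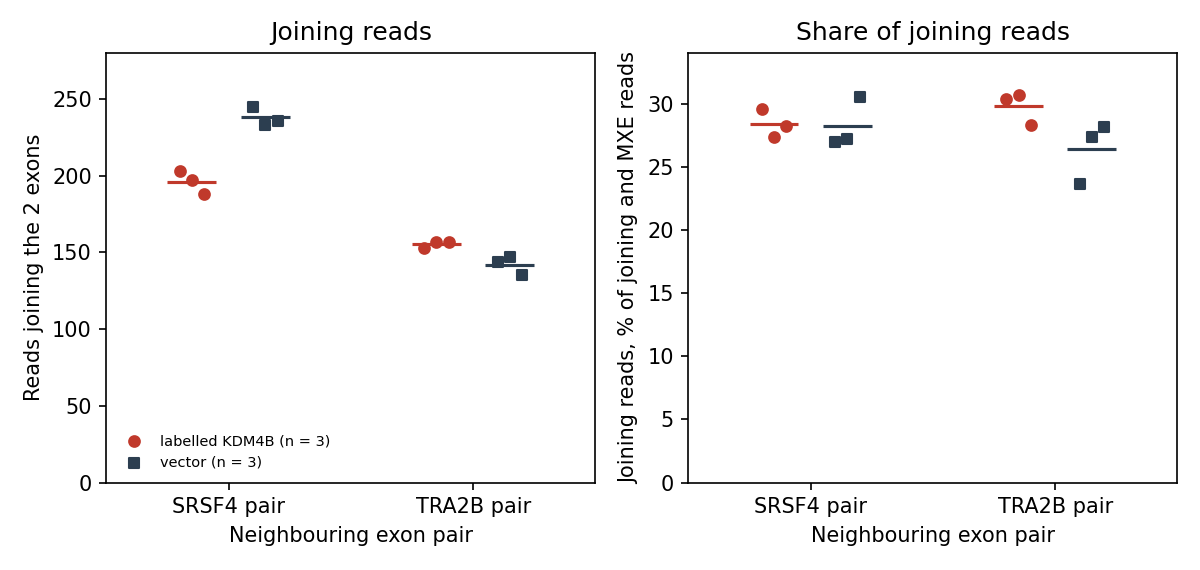
Reads joining the neighbouring exons of SRSF4 and TRA2B (left, reads) and their share of joining and MXE reads (right, %), 3 points per group with a bar at the mean. Transcripts with both exons also add to the MXE reads, so the share is not a share of transcripts. The reads are raw counts, not scaled for depth: SRSF4 counts are lower and TRA2B counts higher in the KDM4B-labelled libraries, which held fewer joining reads in all, and the shares lie close together.

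Reads give a second view of gene level that does not rest on FPKM. With TMM scaling, joining reads of TRA2B rose by 0.36 (log2, edgeR, adjusted p = 0.0187) and those of SRSF4 differed by -0.05 (adjusted p = 0.756), where 16.1% of 6445 pairs rose and 16.8% fell. In the most-read SE event of each gene, 2 of 6 SR genes rose and 0 fell, against 22.8% and 22.9% of 8556 genes. SRSF1 rose by 0.24 (log2, edgeR, adjusted p = 0.000407) and TRA2B by 0.19 (adjusted p = 0.00259). SRSF11 differed by -0.12 (edgeR, adjusted p = 0.158), a fall in FPKM that its reads did not call.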

How the data were processed

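RNA was measured in 6 LNCaP libraries, 3 per group, grouped by the genotype label. The authors deposited FPKM per gene, rounded to 2 decimals, and whole-number read counts per splicing event, not normalized, per the file headers. HISAT, StringTie and Cufflinks and the build GRCh38 are named without a role or version in the submitters' processing notes. No source used here gives the splicing caller, the annotation or the use of strand. Library totals of mapped reads were not analysed here.

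The SR genes, the related lists, the tests and the pairs were chosen with earlier results of these data known. Expression was fitted over all genes whose mean FPKM reached 1 by limma 3.58.1 (R 4.3.3, mean-variance trend) on log2(FPKM + 1), a scale that understates changes of low genes. Values as deposited are the main result, with median-of-ratios scaling beside them (factors 0.904 to 0.942 for the KDM4B-labelled libraries and 1.09 in all vector libraries). Event reads were tested with edgeR 4.0.16 (glmQLFit, glmQLFTest) over all events of a type, where every library held 10 reads or more, with the gene's summed SE reads as offset. A test of all events against the gene's FPKM was added after the data were seen, since the test against SE reads gives no value for the only SE event of a gene or for a gene with none. The planned test of inclusion against skipping could not be run for SR genes; reads joining neighbouring exons against MXE reads took its place. All tests are two-sided with Benjamini-Hochberg adjustment at 0.05. All 10 SR genes were named whatever they showed, with up to 4 genes of each related list with the lowest p. Each SR gene's most-read event and all those past the threshold were named, as were the other events described, which were chosen after their values were seen. Alternatives were pseudocount, filter, scaling, limma without a trend, an exact permutation test, DESeq2 1.42.0, a block by replicate number and fits without each library in turn. Event positions are given from 1.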

Additional observations from a re-analysis of the deposited data

How the results depend on the processing

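Scaling decided the direction of most SR genes. With median-of-ratios scaling, log2 fold changes turned positive for SRSF1 (0.12), SRSF5 (0.11), SRSF6 (0.035), SRSF7 (0.015), SRSF10 (0.098) and TRA2B (0.18), giving 5 SR genes that rose and 2 that fell, and 23 and 12 related genes. Rescaling without ribosomal RNA gave 0.10, 0.096, 0.025, 0.0052, 0.088 and 0.17 for the same genes, with 4 and 2 SR genes and 23 and 12 related genes. On the most-read SE event (edgeR, TMM), SRSF1 (0.24), SRSF5 (0.055), SRSF7 (0.31) and TRA2B (0.19) were positive, with 2 SR genes that rose and 0 that fell, and 13 and 5 related genes; on joining reads TRA2B was at 0.36. Leaving out 1 library gave 5 to 8 SR genes that fell and, after scaling, 2 to 5 that rose; scaled SRSF7 then ran from -0.016 to 0.056. Relative to the library (TMM) and not to the gene, 7 events were called in place of 0 against SE reads, with the SRSF11, TRA2B and SRSF4 events at -0.11, 0.20 and -0.012. In the same way 9 were called in place of 1 against FPKM, with SRSF11 at -0.11, SRSF5 at 0.064, SRSF4 at -0.011 and the SRSF2 intron at 0.16. Uncalled differences near 0 also changed sign when 1 library was left out: the SRSF4 join share (-0.029 to 0.095), SRSF11 against SE reads (-0.0092 to 0.039) and TRA2B against FPKM (-0.0073 to 0.035). The cause of these changes was not tested, except that a TMM fit with no gene term holds the gene's own change by construction.

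Numbers 1 and 2 occur in both groups, and the labels do not say that they pair samples; the deviations of same-numbered libraries correlated at -0.02 and 0.13 over 12148 genes. With a replicate block, 1 SR gene rose and 6 fell as deposited, 1 rose and 2 fell after scaling (TRA2B, SRSF1, SRSF5 and SRSF10 were no longer called, with limma adjusted p of 0.0943, 0.0938, 0.0658 and 0.229), and the SRSF4 exon event against FPKM was at -0.014. The block left 1 event called against FPKM and 0 against SE reads, and 0 join shares. DESeq2 gave the same 3 counts. Without the limma trend SRSF5 lost its call as deposited (adjusted p = 0.0511) and 7 SR genes fell. A two-sided exact permutation test of single genes cannot go below p = 0.1 with 3 libraries against 3; it gave 0.1 for 8 SR genes, 0.2 for SRSF5 and 0.5 for TRA2B. FPKM carry no depth of their own, and what change the SRSF7 exon or the joining reads could show was not tested.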
